A study of Danio rerio with 2 samples.

Results

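Amacrine cells are the inhibitory interneurons of the inner retina. Most release either GABA or glycine, and they shape the signal that bipolar cells pass to ganglion cells. They arise from retinal progenitors through precursors with *foxn4* and *ptf1a*. AP-2 transcription factors (the *tfap2* genes), *pax6* relatives, *barhl2*, *bhlhe22* and *prdm13* act in their specification or subtype identity. The retinoblastoma protein encoded by *rb1* holds cells out of the cell cycle by binding E2F factors.

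Amacrine-like cells were examined in 2 single-cell libraries of dissected whole brains from zebrafish larvae at 3 days post-fertilization (dpf). One library came from siblings labelled wild type and the other from *rb1*smu2/smu2 mutants, which are homozygous for the *rb1* allele. Each genotype was 1 library made with the Chromium 3' chemistry, in which a unique molecular identifier (UMI) marks each captured mRNA, and the number of brains pooled into each was not given in the sources used here. Barcodes with 200 to 3000 detected genes, fewer than 20000 UMIs and less than 15% of UMIs from mitochondrial genes were retained as cells, and a cell was chosen as amacrine-like when it held at least 1 UMI each of 3 or more of 7 genes. The genes were *pax10*, *tfap2c*, *tfap2a*, *prdm13*, *slc6a9*, *gbx2* and *pvalb6*. The rule selected 154 of 8150 sibling cells and 247 of 8511 mutant cells, 401 of 16661 in all. These were 1.89% of the sibling cells (Clopper-Pearson 95% interval 1.61 to 2.21) and 2.90% of the mutant cells (2.56 to 3.28). All intervals in this text cover counting error only, and no test between genotypes was possible with 1 library of each, so genotype and library cannot be told apart.

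The amacrine-like cells were somewhat deeper than the rest. Their median was 4543 UMIs in the sibling library, against 3359 in the other sibling cells, and 5265 UMIs in the mutant library, against 3648.5. Summed over cells, this gave 801106 sibling and 1383854 mutant UMIs. 16 barcodes occurred in both libraries, and 1 of them was amacrine-like in the sibling library and another 1 in the mutant library, with 0 amacrine-like in both. RNA of other tissues was present. Among the amacrine-like cells, 17 sibling and 7 mutant cells also held 3 or more genes of the epidermis, mesenchyme, muscle, red blood, lens or photoreceptor list. For the 6 epidermal genes the summed level was 2890 CPM (UMIs of a gene per 1000000 UMIs) in sibling and 1384 CPM in mutant amacrine-like cells, against 1847 and 584 CPM in the other cells, and 14 sibling and 3 mutant amacrine-like cells held 3 or more of them. The keratin gene *krt4* alone was found in 47 sibling and 17 mutant amacrine-like cells. The transcript of *rb1* itself gave 4 UMIs in 4 sibling cells and 7 UMIs in 7 mutant cells of this type, a CPM ratio of 1.01, so these few UMIs do not check the genotype labels.

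The genes of the rule differed in how often they occurred. The AP-2 gene *tfap2a* was found in 132 sibling and 223 mutant cells, which is 85.7% and 90.3%. The *pax6* relative *pax10* was found in 82.5% and 83.8%, and the AP-2 gene *tfap2c* in 59.7% and 65.6%. The other 4 genes were each found in a smaller part of the cells. *prdm13*, a zinc finger factor of amacrine subtypes, was found in 27.9% of sibling and 26.7% of mutant cells, and *slc6a9*, the glycine transporter of glycinergic amacrine cells, in 21.4% and 19.8%. The homeobox gene *gbx2* was found in 28.6% and 18.6%, and *pvalb6*, which encodes a parvalbumin calcium buffer, in 31.8% and 22.7%. Red blood cells had far more UMIs per cell (medians 13222.5 and 15818.5). Among them *pax10* was found in 6.52% of sibling and 0 of 46 mutant cells, and *tfap2a* in 4.35% and 6.52%. A UMI of *slc6a9* was found in 6.52% and 10.9% of red blood cells, the highest share among these 7 genes in the mutant library. Whether these UMIs came from the red blood cells themselves was not tested.

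**Figure D1:**
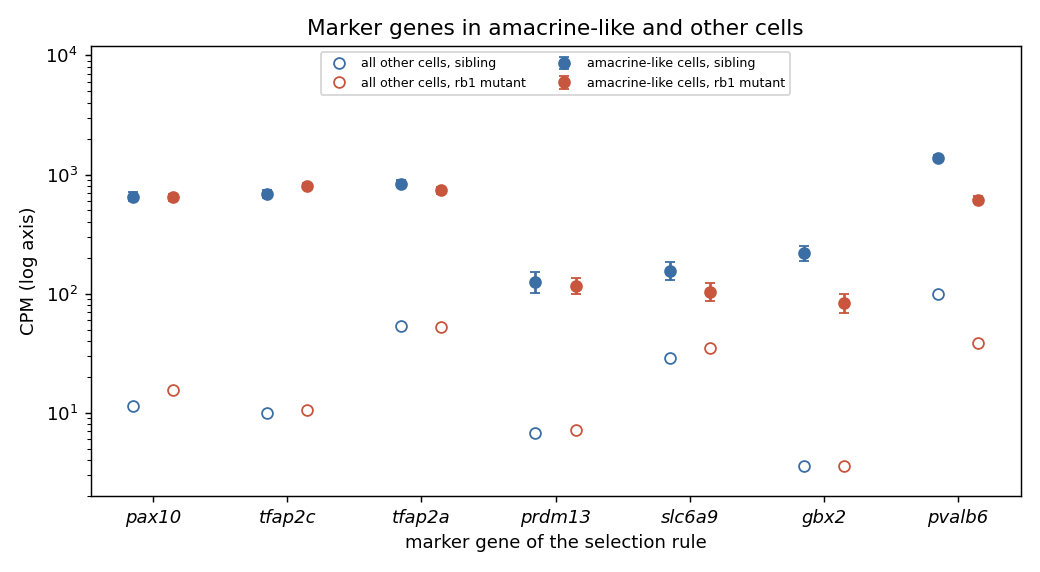
Level of each gene of the selection rule in CPM (log axis) in amacrine-like cells (filled, with exact Poisson 95% intervals) and in all other retained cells (open), for the sibling (blue) and rb1 mutant (red) library. The rule chose the cells by these genes. Between the libraries, *gbx2* and *pvalb6* in amacrine-like cells lie furthest apart, at ratios of 0.38 and 0.45.

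Since the rule selected on these genes, their enrichment is a description. The level of *tfap2c* was 689 CPM in sibling amacrine-like cells and 798 CPM in the mutant, which was 69.1 and 75.2 times that of other cells and the highest enrichment of the 7 genes. The lowest was that of *slc6a9*, at 5.41 and 2.97 times. Between the libraries, *pax10*, *tfap2c*, *tfap2a* and *prdm13* had ratios of mutant to sibling CPM of 0.99, 1.16, 0.87 and 0.93. *gbx2* stood at 218 CPM in the sibling and 83.1 CPM in the mutant cells, a ratio of 0.38 (exact conditional binomial 95% interval 0.30 to 0.48), while the ratio in other cells was 1.01. *pvalb6* stood at 1381 and 617 CPM, a ratio of 0.45 (0.41 to 0.49), and its ratio in other cells was 0.39. *pvalb6* was thus lower in the rest of the mutant library as well. *slc6a9* had a ratio of 0.67 (0.52 to 0.85), against 1.22 in other cells. When each cell was thinned to 1000 UMIs before the rule was applied, the ratio of *gbx2* was 1.1. That setting left 41 sibling and 48 mutant cells, and it was the only 1 of 13 alternative settings that changed the direction of *gbx2*.

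The threshold of 3 genes lay in a range where other amacrine genes were changing. *pax6a*, which the rule did not use, was found in 62.9% of sibling cells with exactly 3 of the 7 genes and in 39.8% of the 319 sibling cells with exactly 2. In the mutant library the shares were 77.0% and 50.8% of 317 cells. With 4 or more genes they were 85.7% of 49 sibling cells and 86.7% of 60 mutant cells. From 2 to 3 genes the shares with *pax6b*, *tfap2b*, *tfap2e*, *bhlhe22* and *barhl2* rose too, in both libraries. From 3 to 4 or more, *bhlhe22* and *tfap2e* rose further in both, while *pax6b* and *tfap2b* fell in both. *pax6b* went from 58.1% to 55.1% in sibling and from 60.96% to 51.7% in mutant cells. *barhl2* fell from 37.1% to 18.4% in sibling cells and rose in mutant cells.

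The label was set beside genes outside the rule, as a description. In amacrine-like cells, 10 of the 17 measured genes of a list of further amacrine factors were at least 2-fold above the other cells in both libraries, and 4 were at least 2-fold below them in both. Measured genes held at least 50 UMIs within the amacrine-like cells, a filter that favours genes high in these cells. Of the list, 29 genes had a UMI there. Over all genes with at least 50 UMIs in all cells of a library, 7.39% of 14013 genes in the sibling and 3.93% of 13732 genes in the mutant library were at least 2-fold higher in amacrine-like than in other cells. Because this filter differs, these shares are not directly comparable with the 10 of 17. *tfap2e*, a further AP-2 gene, stood at 1153 CPM in sibling and 846 CPM in mutant amacrine-like cells, 20.7 and 17.0 times the level in other cells. *tfap2b* was 12.2 and 12.8 times higher and *pax6a*, the eye field and amacrine factor, 12.6 and 11.5 times higher. *bhlhe22*, a factor of amacrine subtypes, was 13.5 and 8.49 times higher, and *barhl2*, another amacrine factor, 3.62 and 3.98 times higher. The vesicular transporter for GABA and glycine, *slc32a1*, was 7.05 and 5.64 times higher. The 4 measured genes below the other cells were *neurod1* (0.44 and 0.30 times), *ebf3a* (0.18 and 0.38), *sox11a* (0.18 and 0.35) and *sox11b* (0.30 and 0.41), factors that many other neurons or immature neurons also use. Some list genes under the filter were also at least 2-fold below in both libraries. These included *foxn4* (0.30 and 0.32), *neurod4* (0.04 and 0.21), *neurod6b* (0.13 and 0.08), *lmo4a* (0.32 and 0.38) and *neurod6a* (0 and 0.13). No list gene under the filter was at least 2-fold above in both.

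The 12 genes outside the rule with the highest enrichment in both libraries included receptors and signalling genes as well as factors. First was *glra4b*, a glycine receptor subunit, with 56 UMIs in sibling and 71 UMIs in mutant cells, 27.7 and 30.9 times the level in other cells. Next was *cabp1b*, a neuronal calcium-binding protein of the calmodulin family, with 43 and 42 UMIs and enrichments of 21.3 and 20.8. *tbx3a*, a T-box factor, was 17.0 and 12.5 times higher and occurred in 28.6% of sibling and 28.7% of mutant amacrine-like cells. *notum1b*, a Wnt-inactivating enzyme gene, was 8.71 and 9.20 times higher, and *cacng3b*, an AMPA receptor auxiliary subunit, 9.33 and 7.88 times. The remaining genes of these 12, *adgra1a*, *arhgap4b* and *zgc:172323*, were 7.72 to 20.1 times higher.

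Markers of other retinal cell types differed in how often they occurred. None of the amacrine-like cells of either library held 3 or more genes of the bipolar or the ganglion cell list. 1 cell in each library held 3 or more photoreceptor genes. The photoreceptor list still summed to 647 CPM in sibling and 141 CPM in mutant amacrine-like cells, against 536 and 323 CPM in other cells, and 1 cell held 86.4% of the UMIs of its gene *opn1lw2*, a cone opsin. Of the horizontal cell list, 1 sibling and 5 mutant cells held 3 or more genes, and *prox1a*, a factor of horizontal and other inner retinal cells, was 2.04 and 2.32 times above other cells. Of the list of Müller glia and progenitor genes, 12 sibling and 15 mutant cells held 3 or more, while 6 of its 7 measured genes were at least 2-fold below other cells in both libraries. Of the brain lists, 0 sibling and 1 mutant cells held 3 or more of the *dlx* and *arxa* genes of ventral forebrain GABAergic neurons. The pan-neuronal RNA-binding protein gene *elavl3* was found in 97.4% and 94.3%. Of the precursor factors, *ptf1a* gave 0 UMIs in sibling cells and 7 UMIs in 2 mutant cells, and *foxn4* was found in 2.60% and 4.05%. The cells thus carried factors of amacrine cells, and *foxn4* and *ptf1a* were found in few of them. *ptf1a* was rare in the other cells as well, found in 0.16% of sibling and 0.40% of mutant ones. Genes that progenitors express were not all rare in the amacrine-like cells. *fabp7a* was found in 33.1% of sibling and 33.2% of mutant ones, and *sox2* in 1.30% and 10.1%. The tissue is labelled whole brain, and whether the eyes were kept was not given in the sources used here.

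A pair of patterns of the rule genes was seen among the cells. The commonest set was *pax10*, *tfap2c* and *tfap2a* without the other genes, in 54 sibling and 98 mutant cells. Cells with *pax10* and *tfap2c*, but fewer than 2 of *prdm13*, *slc6a9* and *gbx2*, made up 77 of the sibling and 139 of the mutant amacrine-like cells. Cells with 2 or more of *prdm13*, *slc6a9* and *gbx2*, but not both *pax10* and *tfap2c*, made up 34 and 47. Both patterns met in 4 sibling and 3 mutant cells, and since the rule needed 3 of the 7 genes, it limits how such patterns can combine. Neither pattern was met by 39 sibling cells (25.3%) and 58 mutant cells (23.5%), so the 2 patterns do not divide all the cells.

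Genes outside the rule differed between the 2 patterns in both libraries. *tfap2b* was found in 85.7% of sibling cells with the *pax10* and *tfap2c* pattern and in 2.9% of those with the other, and in 87.8% and 17.0% of the mutant cells. *tfap2e* was found in 79.2% against 2.9% of sibling cells and in 71.2% of mutant cells against 0 of 47. *barhl2* followed with 50.6% against 5.9% and 56.1% against 12.8%. *pax6b* went the other way, with 44.2% against 88.2% of sibling and 50.4% against 74.5% of mutant cells. Median depths were 4624 and 3962 UMIs in the sibling and 5338 and 4998 UMIs in the mutant cells.

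The cells were also grouped by transmitter genes. *slc6a9* helped to form both the second pattern and the glycine class, so the groupings are not independent. At least 1 UMI of a glutamate decarboxylase gene (*gad1a*, *gad1b* or *gad2*, which make GABA) and none of a glycine transporter gene (*slc6a5* or *slc6a9*) was found in 65 of 154 sibling cells, 42.2% (34.3 to 50.4), and in 75 of 247 mutant cells, 30.4% (24.7 to 36.5). Glycine genes without GABA genes were found in 30 sibling cells, 19.5% (13.5 to 26.6), and 41 mutant cells, 16.6% (12.2 to 21.8). Both were found in 3 sibling and 11 mutant cells, and neither in 36.4% and 48.6%. Since *slc6a9* belongs to the rule, the glycine share depends on the choice of cells. After each cell was thinned to 1000 UMIs, the GABA class held 17.5% (11.9 to 24.5) of sibling and 9.35% (6.02 to 13.7) of mutant cells, and the glycine class 13.6% and 7.32%. The share with only GABA genes was lower in the mutant library at full and at equal depth, with intervals that overlapped in both cases. When at least 2 UMIs of the class genes were required, it was 32.5% (25.2 to 40.5) in the sibling and 12.1% (8.35 to 16.9) in the mutant library. Those intervals did not overlap. A *gad2* UMI was also found in 4.35% of red blood cells of each library, and a *slc6a9* UMI in 6.52% of sibling and 10.9% of mutant ones.

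Cells with only GABA genes (140 over both libraries) and cells with only glycine genes (71) were compared in 2377 genes with at least 50 UMIs over both classes. The classes held 783392 and 345990 UMIs. The 6 genes with the largest ratios each way included several whose UMIs lay almost all in 1 cell. For *pvalb9* 1 cell held 99.7% and for *matn1* 99.3% of the UMIs, and *s100s*, *cyt1l*, *otos*, *krt91*, *col2a1a*, *col9a2* and *her4.2* also had 1 cell with over 25%. Such genes describe single cells and not a class. The genes below were a selection of those with no such cell, a condition set after the values were seen. Others without such a cell included the mitosis gene *cdc20*, with 60 UMIs in the GABA and 0 UMIs in the glycine class. Its level was 2.75 CPM in sibling and 141 CPM in mutant cells of the GABA class. *neurod1* gave 11 UMIs in the GABA and 108 UMIs in the glycine class.

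On the GABA side, *gad2* gave 249 UMIs and *gad1b* 109 UMIs, both against 0 UMIs in the glycine class by construction. The GABA transporter gene *slc6a1a*, not used to form the classes, was found in 43.6% of the GABA class and 5.63% of the glycine class. Its level was 223 CPM against 8.13 CPM in the sibling and 169 CPM against 13.5 CPM in the mutant library. *tfap2e* was found in 63.6% against 4.23%, with 1309 against 0 CPM in the sibling and 1201 against 170 CPM in the mutant library. The estrogen-related receptor gene *esrrga* was found in 28.6% against 2.82%. *nr4a2b*, an orphan nuclear receptor gene, gave 51 UMIs in the GABA class and 0 in the glycine class. *barhl2* stood at 180 against 49.1 CPM over both libraries.

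On the glycine side, *slc6a9* stood at 984 CPM in sibling and 592 CPM in mutant cells of that class. A cell of the glycine class with *slc6a9* needed fewer of the other rule genes to be chosen than a cell of the GABA class. The shares of rule genes such as *prdm13* in the classes are thus shaped by the rule and are a description. *pax10* was found in 96.4% of the GABA class and 40.8% of the glycine class. Genes that went with *pax10* and *tfap2c* in the patterns above, such as *tfap2e* and *barhl2*, can therefore differ between the classes through the rule as well. *prdm13* was found in 62.0% of the glycine class and 17.1% of the GABA class, at 398 against 63.2 CPM in the sibling and 332 against 61.9 CPM in the mutant library. *ebf3a*, a helix-loop-helix factor of the EBF family, was found in 45.1% against 5.00%, at 325 against 24.7 CPM in sibling and 421 against 61.9 CPM in mutant cells. The pseudokinase gene *camkvb* was found in 32.4% against 3.57%, the active zone gene *rims2a* in 28.2% against 11.4%, and *grin1a*, an NMDA receptor subunit, in 42.3% against 13.6%. *pax6a* differed little, with a ratio of GABA to glycine class of 1.13 after 5 CPM were added to both. The shared vesicular transporter *slc32a1* was found in 76.9% and 73.3% of the sibling GABA and glycine classes and in 62.7% and 43.9% of the mutant ones.

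**Figure D2:**
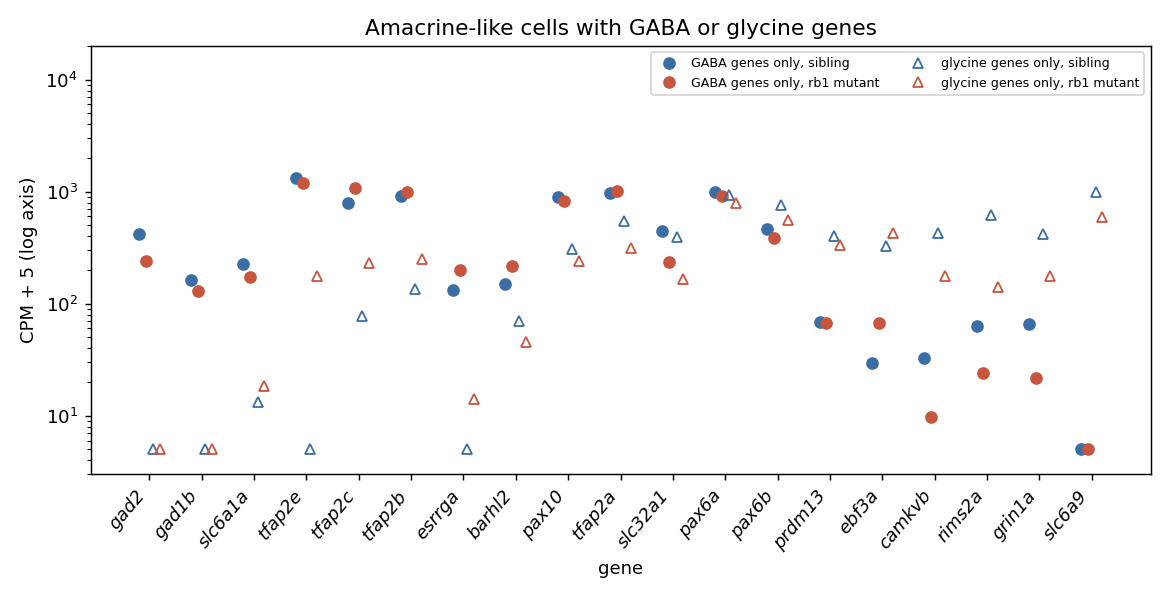
CPM plus 5 (log axis) of 19 genes in amacrine-like cells with only GABA synthesis genes (filled circles) and only glycine transporter genes (open triangles), for the sibling (blue) and rb1 mutant (red) library. *gad2*, *gad1b* and *slc6a9* formed the classes. *pax10*, *tfap2c*, *tfap2a* and *prdm13* belong to the selection rule. *tfap2e* is high in the GABA class and *ebf3a* and *grin1a* are high in the glycine class in both libraries.

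The largest difference between the libraries was in cell cycle genes. All 17 measured genes of the cell cycle list were at least 2-fold higher in mutant than in sibling amacrine-like cells. Their median ratio was 32.1, where genes at 0 UMIs in the sibling cells were set to a floor of 3 UMIs. Apart from *hmgb2a* and *hmgb2b*, they had few sibling UMIs and passed the filter of 50 UMIs through the mutant cells. Their direction was thus largely set by the filter. Of the unmeasured genes of this list of 23, *mcm2*, *mcm3*, *mcm5* and *mcm6* were found in larger shares of mutant than sibling cells. *ccnd1* (2.60% of sibling and 2.43% of mutant cells) and *mcm7* (3.25% and 2.83%) were not. Over all 3723 genes with at least 50 UMIs, 163 or 4.38% were at least 2-fold higher in the mutant cells, and 17 of these 163 belonged to the cell cycle list. The median ratio of the same list in the other cells was 1.72.

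The genes covered both S phase and mitosis. *pcna*, the sliding clamp of DNA replication, gave 8 UMIs in 7 sibling cells and 560 UMIs in 86 mutant cells. That is 9.99 CPM against 405 CPM, a ratio of 40.5 (20.4 to 94.3), against 1.52 in other cells. *rrm2*, a ribonucleotide reductase subunit that makes deoxynucleotides, gave 9 UMIs in 9 sibling cells and 654 UMIs in 62 mutant cells. *mki67*, a coat protein of mitotic chromosomes, gave 2 UMIs in 2 sibling cells and 252 UMIs in 45 mutant cells, a ratio of 72.9. *nusap1*, a spindle protein, gave 1 UMI in 1 sibling cell and 324 UMIs in 45 mutant cells. *cdk1*, the kinase that drives entry into mitosis, gave 0 UMIs in sibling cells and 193 UMIs in 38 mutant cells, at least 37.2-fold higher by the floor of 3 UMIs per library. *ccna2*, which encodes cyclin A2, gave 1 and 183 UMIs. No mutant cell held more than 8.45% of the UMIs of any of these 6 genes.

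Counted per cell, 3 of 154 sibling and 84 of 247 mutant amacrine-like cells held at least 1 UMI of 3 or more of 21 cell cycle genes. These were 1.95% (0.40 to 5.59) and 34.0% (28.1 to 40.3). The threshold of 3 genes was set after the data had been seen. The 3 sibling cells held exactly 3 genes each, and 0 sibling cells held 4 or more, whereas in the mutant library 20 cells held 3 genes and 1 cell held 19. Of the 84 mutant cells, 75 held 2 or more of 9 S phase genes, 43 held 2 or more of 11 mitosis genes and 34 held both.

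**Figure D3:**
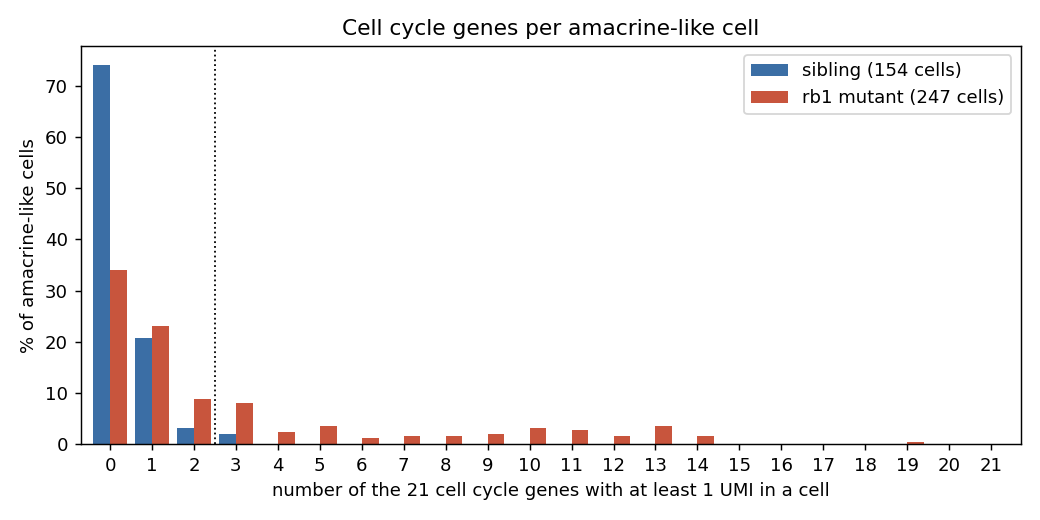
Share of amacrine-like cells (% of the cells of a library) by the number of 21 cell cycle genes with at least 1 UMI, for 154 sibling (blue) and 247 rb1 mutant (red) cells. The dotted line separates cells with 3 or more genes. No sibling bar reaches beyond 3 genes, while mutant cells extend to 19.

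Depth moved with this count. Among mutant amacrine-like cells the share with 3 or more cell cycle genes was 10.0% of the 60 cells with under 4000 UMIs, 31.1% of the 103 cells with 4000 to 6000 UMIs and 54.8% of the 84 cells with 6000 UMIs or more. In the sibling library it was 0 of 48, 1 of 68 and 2 of 38 cells. After thinning to 1000 UMIs, 47 of 246 mutant cells (19.1%, 14.4 to 24.6) and 0 of 154 sibling cells held 3 or more, where 0 of 154 cells allows a share of up to 1.95% by the floor of 3 counts. Red blood cells, at 15818.5 UMIs per cell in the mutant library, gave 9 of 46 (19.6%) at full depth and 1 of 46 (2.17%) after thinning, and 0 of 46 in the sibling library at both depths. Removal of the 7.5% of barcodes with the highest doublet scores left 32.8% of mutant and 1.45% of sibling cells. Without the cells that carried other-type genes the shares were 34.2% and 1.46%.

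The amacrine-like cells were not alone in this. Among other cells with an *elavl3* UMI, 6.81% of 3481 sibling and 30.4% of 3981 mutant cells held 3 or more of the 21 genes. Cells of the bipolar list gave 1.09% of 274 and 30.6% of 147 cells, those of the photoreceptor list 3.96% and 26.3%, and those of the ganglion cell list 4.19% of 167 and 55 of 220 cells. Over the cells of the forebrain list the shares were 27.0% and 47.7%. Whether the difference between libraries in amacrine-like cells departs from that in these classes was not tested.

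**Figure D4:**
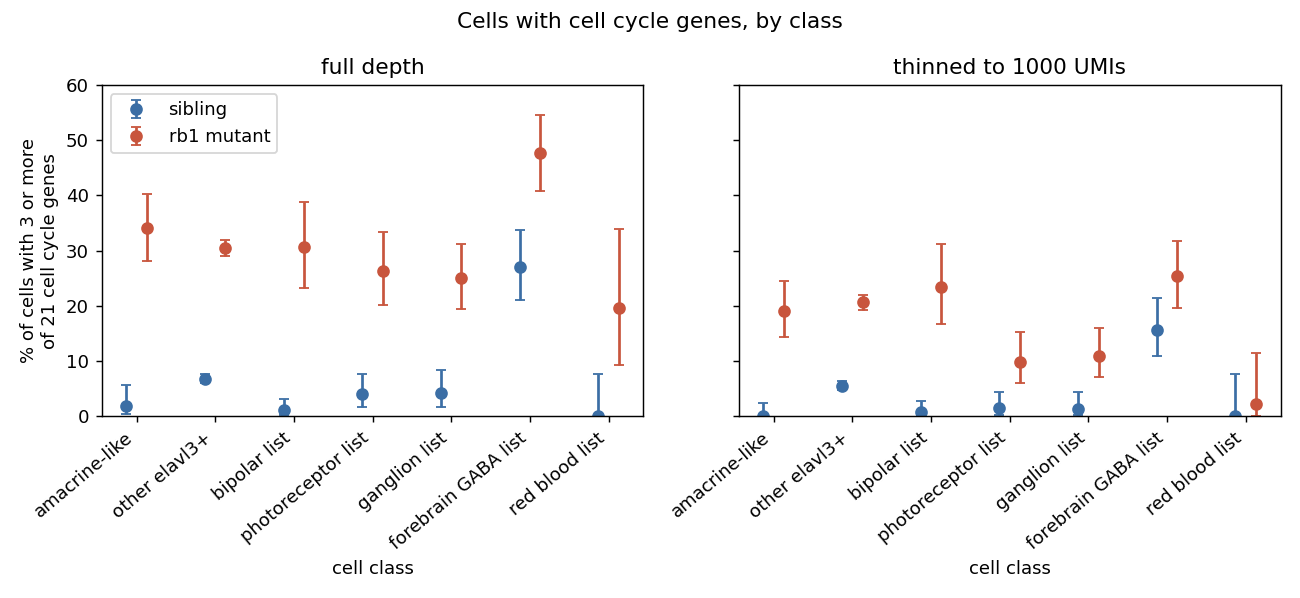
Share of cells (%) with 3 or more of 21 cell cycle genes in 7 classes of cells at full depth (left) and after thinning each cell to 1000 UMIs (right), with Clopper-Pearson 95% intervals, for the sibling (blue) and rb1 mutant (red) library. The mutant share lies above the sibling share in each class at full depth, and red blood cells fall to 2.17% in the mutant library after thinning.

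The 84 mutant cells with cell cycle genes also held amacrine and neuronal genes, several of them at lower levels than the 163 mutant cells with fewer cell cycle genes. *elavl3* was found in 92.9% and 95.1% of these groups, and in 54.8% and 66.7% after thinning to 1000 UMIs. *pax6a* was found in 79.8% and 79.1%, and in 45.2% and 52.5% after thinning. *barhl2* stood at 134 and 143 CPM and was found in 9.52% and 12.3% after thinning. *tfap2b* stood at 441 and 831 CPM and *tfap2e* at 330 and 1204 CPM, and *tfap2e* was found in 17.9% and 38.3% after thinning. *slc6a1a* was found in 14.3% and 33.1% at full depth. The synaptic vesicle gene *sv2a* was also rarer among them, found in 13.1% against 31.9%. This was so although the cells with cell cycle genes had more UMIs, with medians of 6159 and 4793. The neuronal gene *stmn1b* differed little, at 95.2% and 95.7%. *pvalb6* was found in 10.7% against 28.8%, but it belongs to the rule, so its shares are shaped by the choice of cells. The precursor gene *foxn4* was found in 11.9% of them (10 of 84) and in 0 of 163, and *fabp7a*, a fatty acid-binding protein gene of radial glia and progenitors, in 53.6% and 22.7%. After thinning to 1000 UMIs, *foxn4* was found in only 1.19% and 0%, and *fabp7a* in 32.1% and 9.26%. Both patterns of the rule genes included cells with 3 or more cell cycle genes. These were 30.2% of mutant cells with *pax10* and *tfap2c* and 36.2% of those with 2 or more of *prdm13*, *slc6a9* and *gbx2*. Among mutant cells with neither pattern the share was 37.9%. The cells with 3 or more cell cycle genes were not of 1 pattern.

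The cell cycle list also holds *hmgb2a* and *hmgb2b*, which are among its 17 measured genes but did not enter the count per cell. *hmgb2a*, a chromatin protein abundant in dividing cells, gave 203 UMIs in sibling and 4658 UMIs in mutant amacrine-like cells, a ratio of 13.3 (11.5 to 15.4) against 1.58 in other cells. In mutant and sibling cells with fewer than 3 cell cycle genes its ratio was 3.68, and that of the pyrophosphatase gene *dut*, which keeps uracil out of DNA, was 15.5 from 3 and 49 UMIs. *sox11a*, a factor of immature neurons, stood at 43.7 CPM in sibling and 109 CPM in mutant amacrine-like cells, and its ratio in other cells was 1.29. *fabp7a* had a ratio of 2.21 (1.93 to 2.53) against 1.02, and 1 cell held 28.3% of its UMIs. Without the cells that held 3 or more cell cycle genes, *fabp7a* went the other way, with a ratio of 0.36, and *sox11a* had a ratio of 1.79.

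Neuronal genes were lower in the mutant amacrine-like cells. Of 18 measured genes of a list of neuronal differentiation and synaptic genes, 7 were at least 2-fold lower and 0 were at least 2-fold higher, and the median ratio was 0.60. Over all 3723 genes, 291 or 7.82% were at least 2-fold lower, and the median ratio of all genes was 0.92. After rescaling by the median of the gene ratios, a shift of -0.13 on the log2 scale, 202 genes were at least 2-fold higher and 222 lower. The neuronal list had a median ratio of 0.78 in the other cells, and of 0.53 in amacrine-like cells once those with genes of other cell types were left out.

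Several of the 7 genes act at the synapse. *sv2a* gave 268 UMIs in sibling and 159 UMIs in mutant cells, a ratio of 0.34 (0.28 to 0.42) against 0.54 in other cells. *syn2a*, which encodes a synapsin that tethers vesicles, had a ratio of 0.30 and *snap25a*, a SNARE protein of vesicle fusion, 0.40. *gap43*, a growth cone protein, had a ratio of 0.26 against 0.83, and *stmn2a*, a stathmin that binds tubulin, 0.32 against 0.68. The calretinin genes *calb2a* and *calb2b*, calcium buffers of inner retinal neurons, had ratios of 0.06 and 0.44. For *calb2a* 1 cell held 33.7% of the UMIs. This gene also passed the UMI filter through the sibling cells, so its direction was partly set by the filter. *elavl3* stood at 0.79 (0.73 to 0.86) against 1.11 in other cells.

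Receptor and transmitter genes followed. Of 5 measured receptor genes 3 were at least 2-fold lower, the AMPA receptor subunit gene *gria1a* with 60 and 19 UMIs (ratio 0.18, 0.10 to 0.31), *grin1b* with 120 and 50 UMIs (0.24, 0.17 to 0.34) and *grin1a* with 81 and 58 UMIs (0.41, 0.29 to 0.59). Their ratios in other cells were 0.66, 0.50 and 0.60. Only 5 of the 24 receptor genes listed passed the filter of 50 UMIs, and *gria1a* passed it through the sibling cells, so its direction was partly set by the filter. Over all 3723 genes, 7.82% were at least 2-fold lower. Of 5 measured GABA genes 2 were at least 2-fold lower, *gad2* at 0.40 (0.31 to 0.51) and the GABA transporter gene *slc6a1b* at 0.44 (0.35 to 0.56). In other cells they stood at 0.53 and 0.91. *slc32a1* had 300 and 262 UMIs, a ratio of 0.51 (0.43 to 0.60) against 0.63 in other cells, and was found in 72.1% of sibling and 54.3% of mutant amacrine-like cells.

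Leaving out the cells with 3 or more cell cycle genes moved these ratios towards 1. The median ratio of the neuronal list was then 0.70 and that of the receptor genes 0.53, and 6 of the 7 neuronal and 2 of the 3 receptor genes remained at least 2-fold lower. At 1000 UMIs per cell, *sv2a* was found in 29.1% of sibling and 12.3% of mutant cells with fewer cell cycle genes, and *slc32a1* in 31.1% and 18.5%.

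**Figure D5:**
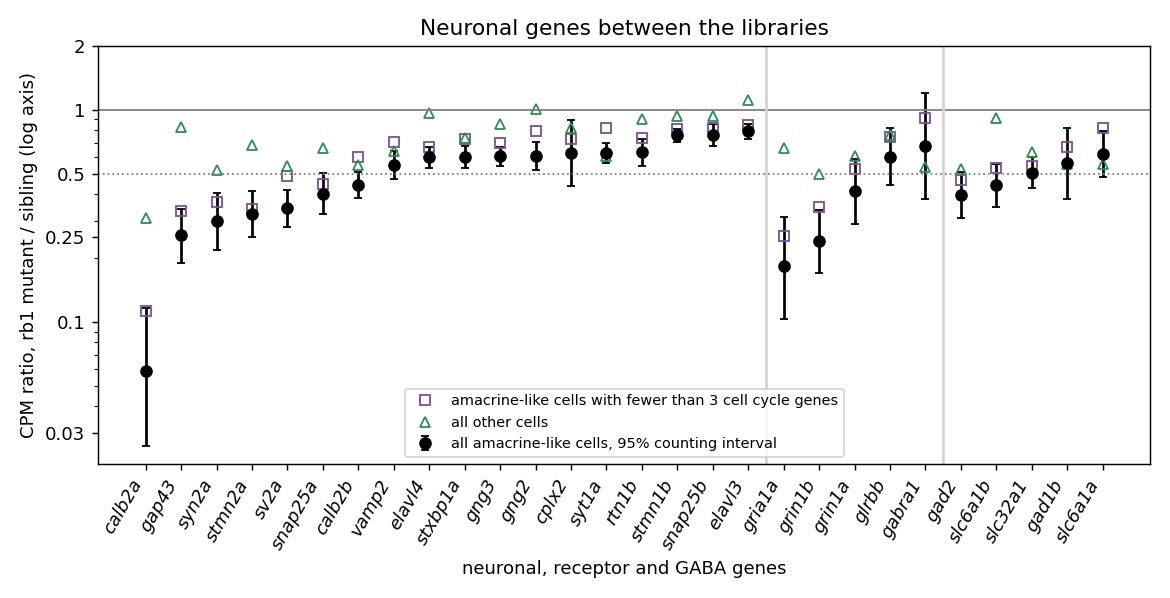
Ratio of mutant to sibling CPM (log axis) of 28 neuronal, receptor and GABA genes (groups separated by grey lines) in all amacrine-like cells (black, 95% counting interval), in amacrine-like cells with fewer than 3 cell cycle genes (squares) and in all other cells (triangles). The dotted line marks a 2-fold lower level. *gria1a* and *grin1b* lie at 0.18 and 0.24 in all amacrine-like cells and at 0.25 and 0.35 without those with cell cycle genes.

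The direction of the neuronal ratios depended on the upper limits on genes and UMIs. Beyond these limits lay 31 sibling and 20 mutant barcodes that met the marker rule, with medians of 63316 and 44465.5 UMIs and together 3015399 and 1477854 UMIs, more than all amacrine-like cells of their library. With them included, the median ratio was 1.22 for the neuronal list and 1.07 for the receptor genes, and the ratio of *pvalb6* was 1.1. Of the cells so chosen, 15.7% of sibling and 38.6% of mutant ones held 3 or more cell cycle genes. These barcodes held little amacrine RNA. *pax10* stood at 5.31 CPM in the sibling ones, against 653 CPM in amacrine-like cells, and *elavl3* at 50.7 against 1180 CPM, while the epidermal keratin gene *krt4* stood at 32705 against 971 CPM. Over a wider set of lists that adds forebrain, hindbrain, Purkinje, microglia, endothelium and neural crest genes, 3 or more genes of a list were found in 30 of the 31 sibling and 17 of the 20 mutant barcodes, and in 18 of 154 and 11 of 247 amacrine-like cells. Thinned to 1000 UMIs, 0 of the 31 and 1 of the 20 still held 3 of the marker genes, compared with 41 of 154 and 48 of 246 amacrine-like cells.

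Over all genes with at least 100 UMIs, the 8 genes with the largest ratios each way again included several that rested on single cells. Higher in the mutant cells were *nusap1*, *zgc:110540*, *ccna2*, *mki67*, *dut* and *zgc:110425*, each spread over 36 or more mutant cells, and *pvalb9* and *s100s*, of which 1 cell held 99.5% and 99.7% of the UMIs. The genes with the lowest ratios were *tcnbb*, *si:dkey-9l20.3*, *matn1*, *otos*, *icn2*, *defbl1*, *zgc:193505* and *pvalb5*, of which 1 cell held 47.4% to 98.7% of the UMIs. Of the genes at least 2-fold higher 17, and of those lower 54, had 1 cell with over 25% of the UMIs.

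Among genes without such a cell, *fosb* had the lowest ratio. It gave 87 UMIs in 27 sibling cells and 18 UMIs in 11 mutant cells, a ratio of 0.12 (0.07 to 0.20) against 0.55 in other cells. *fosab* gave 324 UMIs in 57 cells and 129 UMIs in 42 cells, a ratio of 0.23 (0.19 to 0.28) against 0.77. *fosb* and *fosab* encode immediate early Fos factors, which cells induce within minutes of stimulation, dissociation included. *bhlhe23*, a factor of retinal interneurons, gave 291 UMIs in 34 cells and 134 UMIs in 33 cells, a ratio of 0.27 (0.22 to 0.33) against 1.07. *rims2a* had a ratio of 0.28 and *syngr3b*, a synaptic vesicle protein gene, 0.26. The collagen chaperone gene *serpinh1b*, at a ratio of 0.15, was found in 14 sibling and 6 mutant cells and is no marker of amacrine cells.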

How the data were processed

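The deposited values are whole UMI counts for each gene in each barcode, which the authors made with Cell Ranger (5.0.0 in the file header, 5.1.0 in the submitters' processing notes) from reads aligned to GRCz11 with Ensembl release 104, counting uniquely mapped exonic reads and calling barcodes with EmptyDrops. The counts carry no normalization. Dense copies of the tables held the same values and were not used further. The smallest deposited barcode held 500 UMIs.

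Counts of genes sharing a symbol were summed. UMIs were summed over the chosen cells of a library and given as CPM with exact Poisson intervals. Ratios have exact conditional binomial and shares Clopper-Pearson intervals, all at 95%. A count of 0 was set to a floor of 3 for ratios. Genes needed 50 UMIs over both libraries, and 2-fold was the size rule. Python 3.11.15, NumPy 2.4.6, SciPy 1.17.1, pandas 2.3.3 and, for Scrublet scores, scanpy 1.11.5 were used. Doublets were kept in the main values. Genes named were the 7 rule genes, the 12 most enriched outside the rule (lower of both libraries, UMIs in at least 10% of members), the 8 each way between libraries with 100 UMIs or more, the 6 each way between transmitter classes, and genes of the lists, of which 1 is not reported here and was left out of its list's counts and medians. Genes without a cell holding over 25% of the UMIs were named in addition after their values were seen. Members and lists were chosen with earlier results of these data known. The arithmetic of the ratios was tested on simulated counts. These held counting error only, without spread between cells or libraries, so they cannot show how such spread affects the 2-fold calls. The alternatives were other marker numbers and lists, cell limits, doublet removal, thinning, scaling and count filters. No coordinates or sequences are given, since no GRCz11 genome was used.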

Additional observations from a re-analysis of the deposited data

Results flagged for a closer look

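Between the libraries, 4 genes moved at least 2-fold one way in amacrine-like cells and at least 2-fold the other way in all other cells. The difference was not tested. *pvalb9* had a ratio of mutant to sibling CPM of 180 in amacrine-like cells and 0.18 in other cells, and 1 cell held 99.5% of its UMIs. *s100s* had 170 and 0.12, with 99.7% in 1 cell. *si:dkey-183i3.5* had 3.05 and 0.07, with 82.4% in 1 cell. *zgc:136930* had 3.08 and 0.09, with 82.5% in 1 cell.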

How the results depend on the processing

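No paired analysis was possible because each genotype had 1 library, and for the same reason no library could be left out. Settings on other-type cells, dominant cells and cell cycle cells were chosen after seeing the data. Of the shares and gene counts, 83 stayed close to the main value and 53 moved. Of 1120 ratios of named genes, 742 stayed close, 373 moved and 5 changed direction, where a change of direction was counted only for genes at least 2-fold apart in the main values. Counting smaller differences too, 100 of the 1120 lay on the other side of 1, in 36 of 90 genes, and 66 of the 100 came from lifting the upper limits or using all barcodes. The causes were not tested unless the setting itself shows them (fewer genes, cells or UMIs).

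With at least 20 UMIs per gene, 439 genes were 2-fold higher and 758 lower in mutant amacrine-like cells, and with at least 200 UMIs 35 and 58, with 560 sibling and 269 mutant genes above the other cells. A threshold of 2 cell cycle genes gave 42.9% of mutant cells, and a threshold of 5 gave 0% of sibling and 23.5% of mutant cells. With 2 markers the amacrine-like share was 5.80% and 6.63%, 9.73% of sibling ones held cell cycle genes, 680 genes were lower and *defbl1* had a ratio of 3.58. With 4 markers the shares were 0.60% and 0.70%, 26.7% of mutant ones held cell cycle genes, 57 genes were higher, 112 lower and 959 above other mutant cells. Without *slc6a9* in the rule the mutant share was 2.49%. Without *tfap2a* the shares were 0.80% and 0.98%, with 64 genes higher, 140 lower and 889 above other mutant cells.

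Without upper limits on genes and UMIs, 15.7% of sibling cells held cell cycle genes, 579 genes were higher, 538 lower and 832 above other mutant cells, and the ratios were 1.1 for *pvalb6*, 1.22 for the neuronal and 1.07 for the receptor median. With all deposited barcodes these were 15.5%, 577, 539, 830, 1.1, 1.22 and 1.07. Thinned to 1000 UMIs before the rule, the amacrine-like shares were 0.58% and 0.65%, 0% and 10.4% held cell cycle genes, 5 genes were higher, 4 lower and 1176 above other mutant cells, and *gbx2* had a ratio of 1.1. Without cells carrying other-type genes, *matn1* had a ratio of 1.25.

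With at least 2 UMIs of the transmitter genes, 32.5% of sibling cells were GABA only, 12.99% glycine only and 53.9% neither, and in the mutant 12.1%, 11.3% and 76.5%, with 0% both. Thinned, sibling cells were 17.5% GABA only and 68.2% neither, and mutant cells 9.35% GABA only, 7.32% glycine only, 0.41% both and 82.9% neither. In thinned cells 35 gene ratios rested on too few UMIs to be given, and in 5 other settings 2 to 5 each.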

Other observations

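Some genes of the lists with other retinal or peptide roles were found in few amacrine-like cells. *isl1*, a LIM homeobox factor of several retinal neurons, gave 1 UMI in sibling and 46 UMIs in mutant amacrine-like cells, and its ratio in other cells was 0.82. *sox2*, a progenitor factor that also marks some amacrine cells, stood at 13.7 and 75.2 CPM, a ratio of 5.47 (2.94 to 11.3) against 1.27 in other cells, and was found in 1.30% and 10.1% of amacrine-like cells. *tac1*, a tachykinin precursor gene, gave 5 and 60 UMIs, with 89.2% in 1 cell. Both *sox2* and *tac1* passed the UMI filter through the mutant cells, so their direction was partly set by the filter. *tac3a*, another tachykinin precursor gene, gave 35 and 0 UMIs, with 48.6% in 1 cell.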
